A study of Mus musculus with 16 samples.

Results

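Interferon-stimulated effector genes are the genes that carry out the antiviral response to type I interferon, and 43 of them, out of 57132 genes counted in each library, are described here in mouse neural stem cells. The 43 genes were chosen by their known role together with their level in these same libraries, where most were high in 1 batch and low in the other. The drop between the batches is therefore given as a description with no test, and the questions left to the data are how much of each gene remained, which genes kept most of their level, and whether the gRNA treatment moved them within a batch.

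The cells were neural stem cells of Mus musculus in a series on self-renewing conditions, and each RNA-seq library is labelled GF, gRNA or GF, control, with a batch number of 1 or 2. Every batch holds 3 gRNA and 3 control libraries. The word TAPIR in the title is explained nowhere in the labels used here, nor is the target of the guide RNA, and the labels give no strain, sex, age or passage, so no targeted gene could be checked. The replicate numbers used here only name the libraries, in the order of their accessions, and link no library to another. Nothing says that the 3 libraries of a group were separate cultures, and p-values then measure only the spread between these libraries, which may be technical. Batch 1 and batch 2 are called batches because the labels do so, and what differed between them is not stated.

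Type I interferons bind a receptor made of Ifnar1 and Ifnar2, which activates the kinases Jak1 and Tyk2. These phosphorylate transcription factors such as Stat2, which joins Irf9 in a complex that enters the nucleus and binds a short element in the promoters of interferon-stimulated genes. The products cut, trap or modify viral RNA and proteins. Stem cells of several tissues are known to express a part of this gene set without infection.

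Libraries held 8414028 to 19454390 gene counts, with a median of 14918917. The share of reads that the counting assigned to no feature was 18.95% to 25.07% in batch 1 and 8.83% to 12.7% in batch 2. It would include reads within introns of annotated genes if only exons were counted. All 12 neural stem cell markers, among them Sox2 and Nes, had over 1 CPM (counts scaled to library size by TMM) in at least 1 library. Their summed levels were 2002 to 3335 CPM in batch 1 and 1787 to 2287 CPM in batch 2. At an adjusted p under 0.05 in edgeR, 8 of the 12 were lower in batch 2 and 1 was higher. Log2 differences ran from -4.33 for Prom1 to 2.15 for Hes5, and the median marker was at 76.3% of batch 1. Among the 10 microglia and macrophage markers C1qa and C1qb had 0 counts in every library, and the sum was 8.62 to 14.97 CPM in batch 1 and 5.24 to 10.01 CPM in batch 2. Other lists moved with the batch: endothelial and mural markers summed to 65.8 to 170 CPM in batch 1 and 1.82 to 3.98 CPM in batch 2, with Acta2 alone at 107 CPM on average in batch 1, and astrocyte markers to 428 to 669 CPM against 103 to 268 CPM. Oligodendrocyte lineage markers went the other way, with 148 to 176 CPM in batch 1 and 280 to 458 CPM in batch 2, and 3 of 4 tested were higher in batch 2. Neuron markers summed to 645 to 956 and 616 to 773 CPM, with 4 of 6 lower and 1 higher. Behind these similar sums the median neuron marker was at 6.9% of batch 1. Log2 differences of these markers ran from -5.03 for Snap25 to 2.34 for Tubb3. The part of all these lists in the results was not tested. In these bulk libraries fewer cells expressing a gene and less RNA per cell cannot be told apart.

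A control library stood apart in batch 2. In control replicate 3 of that batch, astrocyte markers summed to 268 CPM against 103 to 194.5 CPM in the other 5 libraries, and fibroblast and mesenchymal markers to 124 CPM against 33.8 to 50.2 CPM, and oligodendrocyte lineage markers to 458 CPM against 280 to 315 CPM. Neural stem cell markers were also highest there, at 2287 CPM against 1787 to 2129 CPM. Neuron markers too were highest, at 773 CPM against 616 to 707 CPM. Microglia and macrophage markers were lowest, at 5.24 CPM against 6.24 to 10.01 CPM. The fibroblast and mesenchymal sum rested on few genes, since 4 of its 8 markers were under 1 CPM in every library. This library also held the highest level of many effector genes. Values are given with and without it where it moved them by more than 1.5-fold.

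Taken as a sum, the 43 effector genes stood at 3452 ± 450 CPM (SD, n = 6 libraries, gRNA and control together) in batch 1 and at 284 ± 38.7 CPM (SD, n = 6) in batch 2, which is 8.23% of the batch 1 level. The lowest batch 1 library had 2934 CPM and the highest batch 2 library 361 CPM. For 42 of the 43 genes every batch 1 library exceeded every batch 2 library as measured in CPM, beside 24.4% of the 18279 genes that passed the filter on low counts. The exception was Oas3, which had 9 counts in all of batch 1. The filter kept 40 of the 43 genes, leaving out Oas3, Sp100 and Sp110. Over all genes tested with edgeR's quasi-likelihood test, 33.4% were lower and 28.4% higher in batch 2 at an adjusted p under 0.05. Nothing is read from the members' counts, since they were chosen on this contrast.

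**Figure D1:**
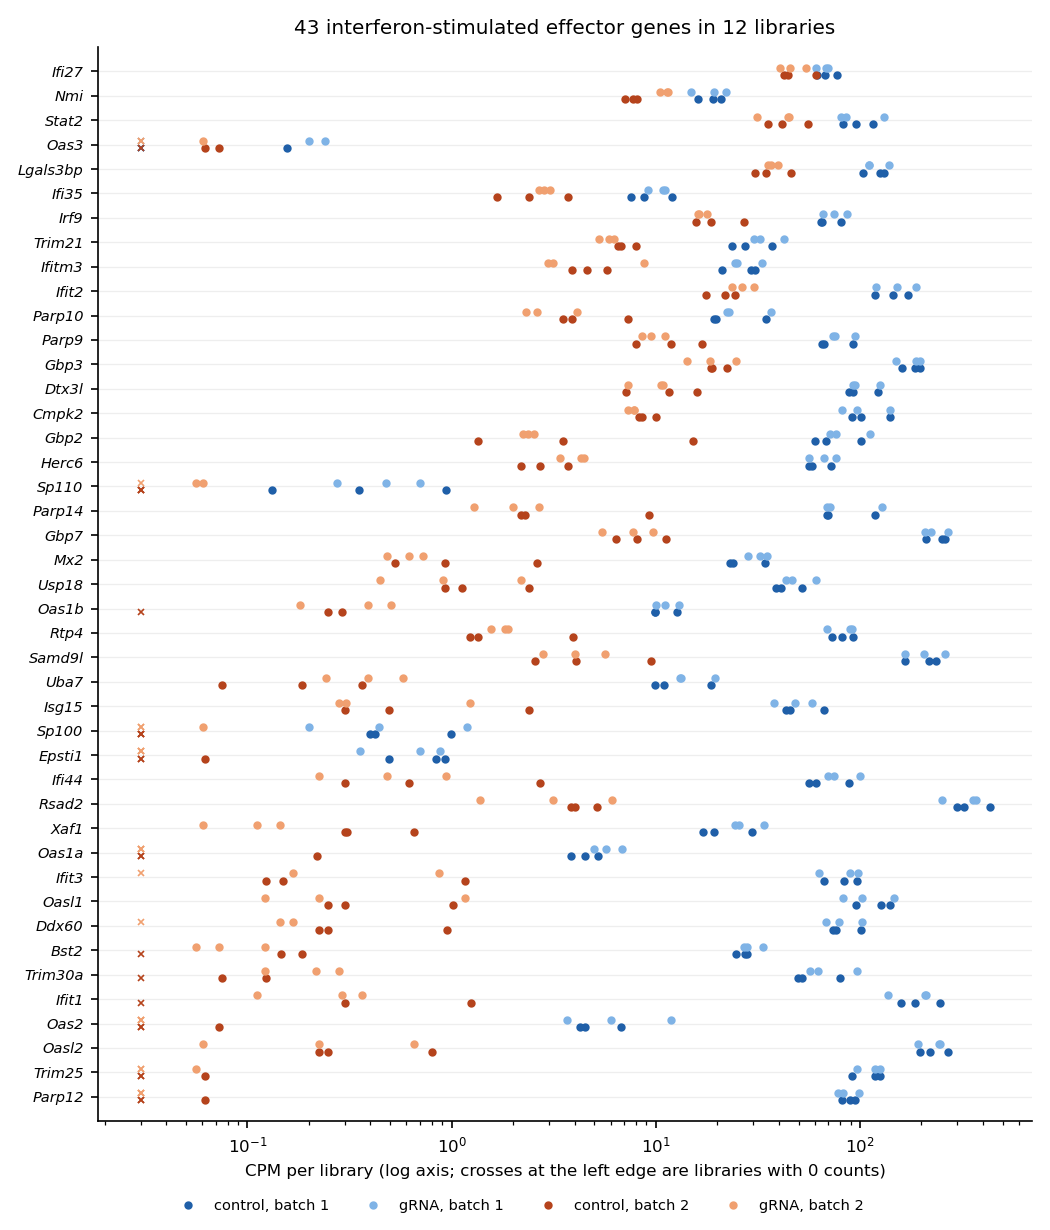
Level of each of the 43 effector genes in each library, in CPM on a log axis, ordered from the gene that kept the largest share of its batch 1 level (top) to the one that kept the least. Points are single libraries, coloured by treatment and batch, and crosses are libraries with 0 counts; the batch 2 points lie left of the batch 1 points for all genes but Oas3, by a gap that widens from Ifi27 at 71.1% to Parp12 at 0.0118%.

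The share of the batch 1 level that remained in batch 2, called the residual below, was computed as the mean CPM of the 6 batch 2 libraries over that of the 6 batch 1 libraries. Its median over the 43 genes was 2.83%. It was under 1% for 11 genes, 1% to 10% for 18, 10% to 50% for 12 and over 50% for 2. Among the 39 members averaging 10 or more counts in batch 1, 66.7% were under 10%, as were 8.26% of the 16633 genes with that many counts, whose median was 94.8%. Across these 39 genes the Spearman correlation between the residuals computed from the control and from the gRNA libraries was 0.94. Its points share libraries and scaling, and genes are not independent replicates.

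The promoters of the members were searched for the core of the element that the complex with Stat2 and Irf9 binds, written here as GAAA followed after any 2 bases by GAAA, on either strand, in windows from 250 bases before to 50 bases after the gene start (RefSeq, build GRCm38.p6). A window was at hand for 34 of 43 members, and 15 of these (44.1%) held the core, beside 3.99% of the 27025 genes with a window. The shorter form GAAANNGAA, which every match of the core contains, was held by 18 of 34 (52.9%), beside 9.76% of all genes. TTCNNNGAA, the core of the gamma-activated element, was held by 6 of 34 (17.6%), beside 9.55%. Since the genes were chosen as interferon-stimulated, the share is a description of the list.

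Residuals of members with and without the core overlapped. The 15 members with it had a median residual of 1.67% and a range of 0.201% to 42.9%, and the 19 with a window and no match a median of 2.28% and a range of 0.0118% to 50.1%. Stat2 with the core and Nmi without it kept much of their level, and Ifit1 with the core and Parp12 without it kept little. The windows of 6 members are printed here because they cover these cases, on the strand of the gene, 5′ to 3′, with matches to the core in capitals or, for Trim25, its 1 match to the shorter form. Ifit1, which kept 0.201%, has its window at chr19:34640639-34640938 on the plus strand, with 2 matches, the nearer ending 75 bases before the start. Isg15, at 1.67%, lies at chr4:156200769-156201068 on the minus strand, with 3 overlapping matches, the nearest ending 56 bases before the start. Trim25, at 0.0174%, lies at chr11:88999153-88999452 on the plus strand. Parp12, at 0.0118%, lies at chr6:39118300-39118599 on the minus strand and holds no match. Stat2, at 42.9%, lies at chr10:128270248-128270547 on the plus strand, with 1 match that ends 212 bases before the start. Nmi, at 50.1%, lies at chr2:51973159-51973458 on the minus strand and holds no match.
Ifit1: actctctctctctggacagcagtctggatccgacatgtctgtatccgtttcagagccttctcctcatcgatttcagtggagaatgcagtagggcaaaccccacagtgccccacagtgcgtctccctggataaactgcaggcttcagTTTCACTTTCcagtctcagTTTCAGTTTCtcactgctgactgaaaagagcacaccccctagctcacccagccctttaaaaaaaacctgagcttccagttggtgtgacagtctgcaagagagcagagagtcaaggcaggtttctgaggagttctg
Isg15: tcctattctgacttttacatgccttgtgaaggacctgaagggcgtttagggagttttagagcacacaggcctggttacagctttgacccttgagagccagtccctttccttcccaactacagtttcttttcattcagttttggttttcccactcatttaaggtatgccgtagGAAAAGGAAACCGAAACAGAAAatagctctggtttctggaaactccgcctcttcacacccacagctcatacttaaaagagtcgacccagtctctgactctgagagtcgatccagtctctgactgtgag
Trim25: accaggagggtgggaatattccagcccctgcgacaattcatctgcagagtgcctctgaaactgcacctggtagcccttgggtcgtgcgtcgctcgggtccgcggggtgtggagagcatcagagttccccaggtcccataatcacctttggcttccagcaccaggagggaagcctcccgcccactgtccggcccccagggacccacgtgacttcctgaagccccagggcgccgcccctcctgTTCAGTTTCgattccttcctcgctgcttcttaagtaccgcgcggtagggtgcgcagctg
Parp12: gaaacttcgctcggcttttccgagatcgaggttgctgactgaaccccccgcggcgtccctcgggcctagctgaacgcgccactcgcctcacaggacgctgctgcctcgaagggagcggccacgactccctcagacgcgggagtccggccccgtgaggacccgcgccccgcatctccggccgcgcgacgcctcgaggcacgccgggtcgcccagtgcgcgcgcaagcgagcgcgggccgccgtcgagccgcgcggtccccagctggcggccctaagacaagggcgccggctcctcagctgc
Stat2: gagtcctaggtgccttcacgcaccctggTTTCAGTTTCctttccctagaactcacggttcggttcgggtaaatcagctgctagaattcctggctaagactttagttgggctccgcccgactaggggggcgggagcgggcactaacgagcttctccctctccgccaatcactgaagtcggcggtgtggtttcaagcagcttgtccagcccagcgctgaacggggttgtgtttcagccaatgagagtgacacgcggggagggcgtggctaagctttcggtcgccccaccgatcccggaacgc
Nmi: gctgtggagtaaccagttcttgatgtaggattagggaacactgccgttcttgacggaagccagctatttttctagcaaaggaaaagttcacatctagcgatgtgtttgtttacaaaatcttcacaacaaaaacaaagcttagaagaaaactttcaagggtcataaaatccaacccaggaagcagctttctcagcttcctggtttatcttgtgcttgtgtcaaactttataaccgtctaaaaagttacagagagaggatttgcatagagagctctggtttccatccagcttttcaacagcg

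The same windows differ in their number of CpG pairs. The Parp12 window held 46, the most of the 34 members, whose median was 5 beside a median of 8 over all genes. Stat2 with 22, Trim25 with 18 and Dtx3l with 17 came next. The Ifit1 window held 4 and the Isg15 window 6.

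Both transcription factors among the members were among those that kept the most. Stat2, which joins Irf9 in the interferon complex, stood at 82.4, 95.9 and 115 CPM in control and 80.7, 85.8 and 132 CPM in gRNA libraries of batch 1. In batch 2 it stood at 35.6, 41.4 and 55.6 CPM in control and 45.1, 44.6 and 31.2 CPM in gRNA libraries. Its levels in the 2 batches did not overlap, and the residual was 42.9%. Irf9, the DNA-binding subunit of the complex, went from 64.2, 64.98 and 81.1 CPM in control and 65.7, 74.95 and 86.2 CPM in gRNA libraries to 15.8, 18.7 and 27.1 CPM and 16.3, 17.8 and 16.2 CPM, a residual of 25.6%.

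The genes upstream of these factors, from lists that are not members, were measured in the same fit. Of 6 interferon receptor genes 2 were lower in batch 2 and 3 higher at an adjusted p under 0.05. Ifnar1 was at 168 ± 9.33 CPM in batch 1 and 143 ± 11.7 CPM in batch 2 (SD, n = 6 each; log2 difference -0.23, edgeR adjusted p = 0.007765), and Ifnar2 at 20.56 ± 3.202 and 17.8 ± 1.56 CPM (SD, n = 6 each; edgeR adjusted p = 0.122). Of the 3 Janus kinases 1, Jak2, was lower, at 62.1%, while Jak1 was at 92.8% (edgeR adjusted p = 0.213) and Tyk2 at 106% of batch 1 (edgeR adjusted p = 0.439). The interferon genes themselves were at or near 0 in both batches: 7 of 10, Ifnb1 among them, had 0 counts in each library, which allows up to 3 counts per library, and the highest value of any in a library was 0.596 CPM, for Ifnk.

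Of 8 interferon transcription factors outside the members 5 were lower in batch 2 and 2 higher. Irf7, which amplifies the response, fell to 3.34%, from 44.25 ± 13.01 to 1.48 ± 0.852 CPM (SD, n = 6 each; edgeR adjusted p = 4.09e-09), and Irf1 to 35.5% (edgeR adjusted p = 7.98e-08). Irf8 rose from 1.55 ± 0.166 to 10.3 ± 3.54 CPM (SD, n = 6 each; edgeR adjusted p = 6e-08). Both chains of the type I receptor, Jak1 and Tyk2 thus lay between 85.1% and 106% of batch 1, while Irf9 and Stat2 lay at 25.6% and 42.9%.

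Interferon-stimulated genes that are not among the 43 members were also lower: 39 of 42 tested, with a median residual of 6.17%. The lists were written with the earlier results of these libraries known. Neither this count nor the p-values of listed genes are therefore independent evidence of a direction. Zc3hav1, a zinc finger protein that targets viral RNA for decay and is named after its values were seen, fell from 236 ± 24.8 to 0.148 ± 0.172 CPM (SD, n = 6 each), given as a description, and Mx1, an antiviral GTPase, from 4.07 ± 1.63 to 0.157 ± 0.195 CPM (SD, n = 6 each; edgeR adjusted p = 1.92e-06). The 3 that did not fall were Ifitm2 at 147% and Daxx at 125%, which were higher, and Pml at 99.7%. Among RNA and DNA sensors 9 of 11 tested were lower and 1, Mavs, was higher, and among antigen presentation genes 12 of 13 were lower, with median residuals of 23.6% and 46.6%. Of 6 negative regulators of the pathway 3 were lower, Socs1, Socs3 and Ptpn2.

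**Figure D2:**
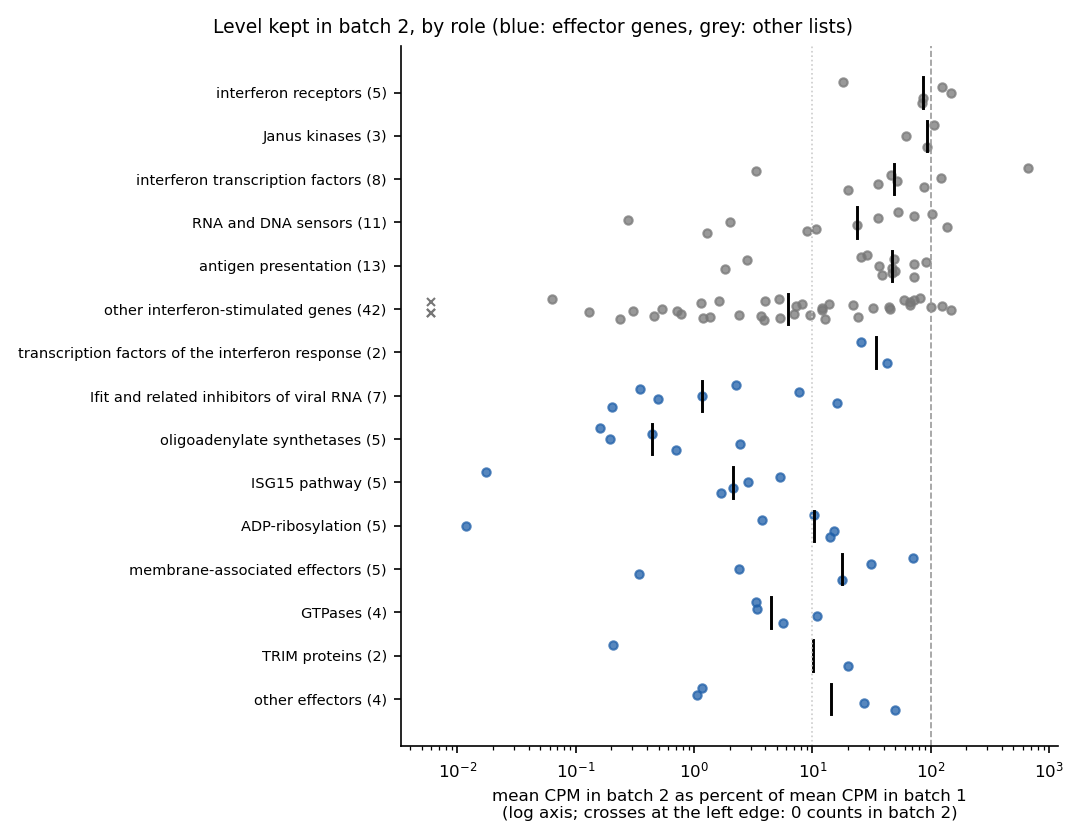
Mean CPM in batch 2 as a percent of that in batch 1 (log axis) for genes averaging 10 or more counts in batch 1, by the role of the effector genes (blue) and for 6 other lists (grey). Each point is a gene, the black bar is the median, the numbers in brackets count the genes, and the dashed line marks 100%. The receptors and kinases have medians of 86.5% and 92.8%. The oligoadenylate synthetases have the lowest median of the roles with 5 or more genes. Among the roles in blue the ADP-ribosylation genes span the widest range as a ratio, from 0.0118% to 15.3%.

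Most of the genes that act on viral RNA kept little. Of the Ifit and related inhibitors of viral RNA, 6 of 7 kept less than 10%, with a range of 0.201% to 16.1%. Rsad2, which makes a chain-terminating nucleotide, was at 300, 431 and 321 CPM in control and 368, 251 and 357 CPM in gRNA libraries of batch 1, then 3.83, 4.01 and 5.17 CPM and 6.09, 3.15 and 1.38 CPM in batch 2, or 1.17%. Samd9l, which restrains translation, was at 166, 217 and 237 CPM and 207, 166 and 262 CPM in batch 1, then 2.55, 4.07 and 9.47 CPM and 2.80, 4.002 and 5.66 CPM in batch 2. Its residual was 2.28%, and its highest batch 2 value was that of control replicate 3. Ddx60, a helicase, kept 0.346% (0.188% without control replicate 3 of batch 2).

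Ifit1, Ifit2 and Ifit3, which lie in 1 cluster on chromosome 19, kept very different shares. Ifit1 was at 158, 245 and 186 CPM in control and 211, 136 and 208 CPM in gRNA libraries of batch 1. In batch 2 it was at 0.300, 0 and 1.24 CPM in control and 0.112, 0.364 and 0.290 CPM in gRNA libraries, a residual of 0.201% that became 0.112% without control replicate 3. Ifit2 was at 119, 145 and 172 CPM in control and 152, 120 and 187 CPM in gRNA libraries of batch 1, then 17.6, 21.7 and 24.5 CPM and 23.6, 26.4 and 30.2 CPM in batch 2. It therefore kept 16.1%, or 80.1 times the share that Ifit1 kept. Ifit3, which has no other gene listed between it and Ifit2, kept 0.498% (0.317% without control replicate 3 of batch 2). Ifit1 and Ifit3 have near copies, such as Ifit3b at 0.238%, and their reads could be split between copies or dropped as not unique by the counting.

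The neighbours on chromosomes 12 and 16 kept shares that differed less. Cmpk2, a mitochondrial nucleotide kinase that lies next to Rsad2 on chromosome 12, kept 7.64%, 6.55 times the share of Rsad2. In every batch 2 library it lay between 7.34 and 9.996 CPM, against 91.3, 101 and 140.4 CPM in control and 97.2, 81.5 and 140.9 CPM in gRNA libraries of batch 1. On chromosome 16 Parp9, Dtx3l and Parp14 are neighbours, and they kept 14.1%, 10.3% and 3.74% (2.38% without control replicate 3 of batch 2 for Parp14). Parp9 and Dtx3l, whose proteins form a complex, had the closest residuals among the 16 pairs of neighbouring members compared, at a ratio of 1.37. Dtx3l was at 88.6, 92.6 and 122 CPM in control and 94.4, 92.2 and 125 CPM in gRNA libraries of batch 1, then 7.14, 11.5 and 15.9 CPM and 7.33, 10.6 and 10.8 CPM in batch 2. Its residual lay just above 10% and was 9.24% without control replicate 3 of batch 2.

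The 6 genes of the oligoadenylate synthetase family, whose active enzymes make the second messenger that activates an RNA-cutting enzyme, had the lowest median residual of the roles with 5 or more genes, 0.572%, over a range of 0.162% to 32.8%. Oasl2 was at 196, 269 and 221 CPM in control and 244, 192 and 246 CPM in gRNA libraries of batch 1. Its levels were 0.225, 0.247 and 0.801 CPM and 0.224, 0.0606 and 0.653 CPM in batch 2, a residual of 0.162%. Oasl1, its neighbour on chromosome 5, kept 0.442%. Oas2 had 570 counts in batch 1, at 4.24, 4.51 and 6.79 CPM in control and 3.69, 6.04 and 11.9 CPM in gRNA libraries, and 1 count in batch 2, in control replicate 3, without which its residual was 0%. Its residual was 0.196%, with a counting interval on the pooled counts of 0.00417% to 0.922% (95%, exact). Oas1a had 458 counts against 3, all of these in control replicate 3 of batch 2 (0% without it), a residual of 0.702% with an interval of 0.126% to 1.81%. Oas1b, which RefSeq lists as a transcribed pseudogene, kept 2.43%. Oas3 had 9 counts against 3, and its residual of 32.8% has an interval of 5.45% to 126%, so no loss was detectable at this depth.

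All 5 genes of the ISG15 pathway kept under 10%. Isg15, a ubiquitin-like protein that is attached to other proteins, was at 45.4, 67.0 and 43.2 CPM in control and 58.4, 37.8 and 48.0 CPM in gRNA libraries of batch 1. In batch 2 it was at 0.300, 0.494 and 2.40 CPM and at 0.280, 0.303 and 1.23 CPM, with both replicates 3 above the other 4 libraries. The residual was 1.67%, or 1.05% without control replicate 3. Uba7, the enzyme that activates Isg15, kept 2.15%, Usp18, which removes it and also restrains the receptor, 2.83%, and Herc6, its ligase in mice, 5.37%. Herc6 was measured at 55.95, 58.2 and 72.4 CPM in control and 66.4, 56.3 and 76.4 CPM in gRNA libraries of batch 1, then at 2.18, 3.70 and 2.69 CPM and 3.41, 4.43 and 4.28 CPM in batch 2, with no overlap between batches.

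Trim25 and Parp12 had the lowest residuals of the 43 genes. Trim25, a ubiquitin ligase that assists the RNA sensor RIG-I, was at 119, 125 and 91.7 CPM in control and 119, 126 and 97.0 CPM in gRNA libraries of batch 1, a total of 9497 counts. It had 2 counts in all of batch 2, 1 in control replicate 2 and 1 in gRNA replicate 1, which gives a residual of 0.0174% with a counting interval of 0.0024% to 0.0715%. Parp12, an enzyme that attaches single ADP-ribose units to proteins, was at 81.6, 89.1 and 95.02 CPM in control and 77.7, 82.5 and 98.8 CPM in gRNA libraries of batch 1, a total of 7586 counts. It had 1 count in batch 2, in control replicate 2, or 0.0118% with an interval of 0.000313% to 0.069%. The next lowest residual was that of Oasl2, at 0.162%. Neither gene is separated from every other member, since the interval of Oas2, with its 1 count in batch 2, covers both values. Neither gene was detected in control replicate 3 of batch 2, the library in which 21 of the 34 members with at least 10 counts in batch 2 had their highest level. With 2 counts and 1 count in all of batch 2, the absence of these genes from a given library carries no information.

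The ADP-ribosylation genes other than Parp12 kept more. Parp10, which like Parp14 adds single ADP-ribose units, kept 15.3%. The range within this role, from 0.0118% to 15.3%, was the widest of the 10 roles as a ratio.

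Among membrane-associated effectors Ifi27 kept the largest share of all members. Ifi27, a small hydrophobic protein of mitochondria, was at 61.3, 76.9 and 67.5 CPM in control and 70.02, 61.0 and 68.2 CPM in gRNA libraries of batch 1. Its levels were 44.6, 42.6 and 60.6 CPM and 40.4, 45.2 and 54.3 CPM in batch 2, a residual of 71.1%. Its highest batch 2 value, 60.6 CPM in control replicate 3, lay just below its lowest batch 1 value, 61.0 CPM. Lgals3bp, a secreted glycoprotein, was at 104, 125 and 132 CPM in control and 111, 110 and 138 CPM in gRNA libraries of batch 1, then 45.9, 34.8 and 30.6 CPM and 39.6, 35.4 and 36.8 CPM in batch 2. It kept 31.0%, and control replicate 3 held its lowest value. Ifitm3, which blocks viral fusion, kept 17.9%, whereas Rtp4 kept 2.37% and Bst2, which tethers budding virus to the cell surface, kept 0.344% on 9 counts in batch 2.

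The guanylate-binding proteins Gbp7, Gbp3 and Gbp2, GTPases that attack membranes around pathogens, lie together on chromosome 3 and kept 3.41%, 10.9% and 5.59%. Gbp7 was at 210, 260 and 253 CPM in control and 222, 209 and 270 CPM in gRNA libraries of batch 1, then 6.38, 11.2 and 8.08 CPM and 7.77, 9.64 and 5.44 CPM in batch 2. Gbp3 went from 160, 196 and 186 CPM and 187, 150 and 197 CPM to 18.9, 22.3 and 18.6 CPM and 24.7, 18.5 and 14.2 CPM, with no library apart. Gbp2 went from 60.3, 67.9 and 101 CPM in control and 76.7, 71.3 and 112 CPM in gRNA libraries to 1.35, 3.52 and 15.3 CPM and 2.24, 2.37 and 2.54 CPM. Control replicate 3 thus held most of its batch 2 level, and without that library the residual was 2.95%. Members of this family are similar in sequence, so part of their reads may have been left out as not unique. Mx2, a GTPase of the Mx family that RefSeq lists as a transcribed pseudogene, kept 3.33% (2.22% without control replicate 3 of batch 2).

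Nmi and Ifi35, whose proteins bind each other, kept 50.1% and 27.4%. Nmi was at 19.0, 16.2 and 20.8 CPM in control and 19.2, 14.9 and 22.0 CPM in gRNA libraries of batch 1. Its levels were 7.74, 8.08 and 7.07 CPM in control and 11.4, 11.4 and 10.4 CPM in gRNA libraries of batch 2. Ifi35 went from 7.56, 8.75 and 12.01 CPM and 10.9, 9.17 and 11.2 CPM to 2.40, 1.67 and 3.71 CPM and 3.02, 2.67 and 2.83 CPM. Trim21, an antibody receptor and ubiquitin ligase, kept 20.04%, and Trim30a 0.205%, at 49.7, 52.1 and 79.8 CPM and 56.8, 62.3 and 97.2 CPM in batch 1 and 0.0751, 0.123 and 0 CPM and 0.280, 0.121 and 0.217 CPM in batch 2. Xaf1, an antagonist of an apoptosis inhibitor, and Ifi44 kept 1.06% and 1.17%, with 0.743% and 0.686% without control replicate 3 of batch 2. Epsti1 and the nuclear body genes Sp100 and Sp110 were scarce, with 59, 58 and 44 counts in batch 1 and 1, 1 and 2 in batch 2, and the upper ends of their counting intervals were 9.22%, 9.39% and 16.4%.

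Shares of the summed level are given as a description, since genes picked by their residuals must rise or fall in share. The 6 members with the highest residuals, Ifi27, Nmi, Stat2, Lgals3bp, Ifi35 and Irf9, gave 11.2% of the summed CPM of the 43 genes in batch 1 and 55.7% in batch 2. The 6 with the lowest, Parp12, Trim25, Oasl2, Oas2, Ifit1 and Trim30a, gave 20.04% and 0.328%.

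Genes next to the members were read from the order of genes in RefSeq, taking on each side the nearest gene outside every list with a mean of at least 10 counts in batch 1, a reading added after the residuals were known. These were 63 different genes with a median of 79.9% of batch 1. Of them 65.1% lay between 50% and 200%, beside 72.6% of all genes with that many counts. Under 10% lay 8 of the 63, beside 8.26% of all genes with that many counts. They were Rec8, Ifit1bl2, Rph3a, Slc6a13, Tbxas1, Tmprss2, Trim12a and Trim30d. For 38 of the 43 members both neighbours, or the 1 found, had a larger residual than the member. Most members were chosen as genes whose level fell between the batches, so this count was largely set by the choice. It is given as a description and does not test whether the drop was confined to the members. Members that lie together also share neighbours, such as Dtx1 and Rph3a or Hspbap1 and Kpna1, and are not independent cases. Coil and Dgke, on either side of Trim25, were at 118% and 82.9%. Next to Parp12, Kdm7a was at 79.4%, while Tbxas1 on the other side was at 2.90% of a low level, 0.739 ± 0.228 CPM in batch 1 (SD, n = 6). Isg15 lay between Agrn at 145% and Perm1 at 130%, and Oasl1 and Oasl2 between genes at 107% and 112.5%. Exceptions were Irf9, Ifit2, Oas3, Mx2 and Trim30a, each with a neighbour that kept no more than the member did. For Ifit2 that neighbour was Ifit1bl2 and for Trim30a it was Trim30d, which are relatives of these genes.

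**Figure D3:**
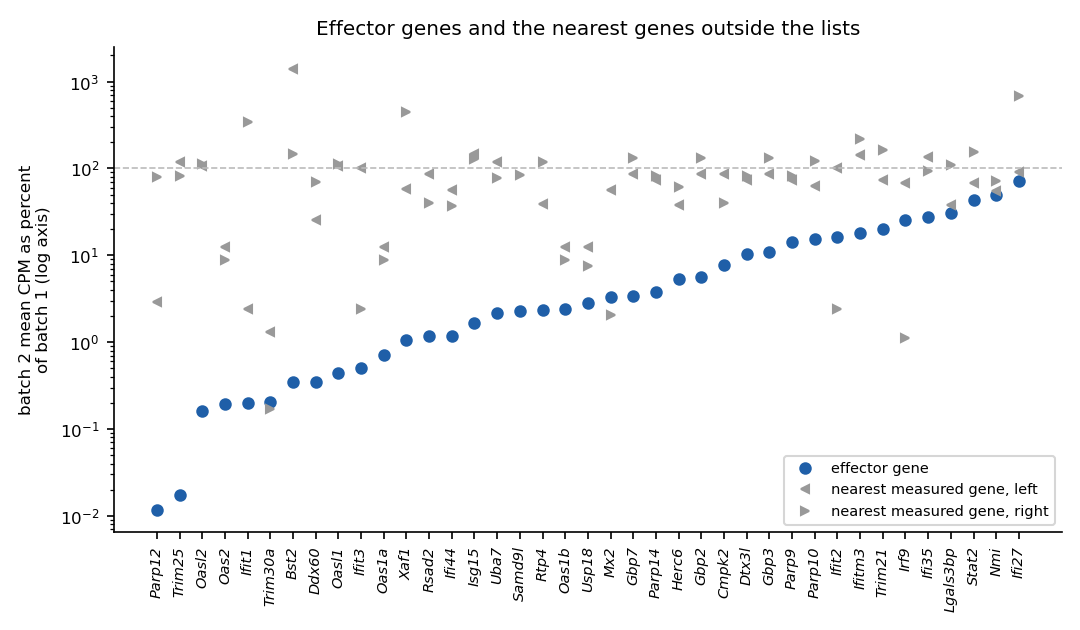
Mean CPM in batch 2 as a percent of batch 1 (log axis) for the 39 effector genes averaging 10 or more counts in batch 1 (blue, in rising order) and for the nearest measured gene outside the lists on each side (grey triangles). Most triangles lie near the dashed line at 100% and above the blue points, with exceptions such as Trim30a and Irf9. The place of the blue points below the triangles was largely set by how the members were chosen.

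Within a batch the members' levels differed by library. In batch 1 the median deviation of the 43 genes from their batch mean, on a log2(CPM + 0.5) scale, was 0.29 in gRNA replicate 3 and 0.20 in control replicate 3, and between -0.22 and -0.03 in the other 4 libraries. In gRNA replicate 3, 39 of 43 genes were above their batch mean, and 31 of the 42 genes with at least 10 counts in batch 1 had their highest level there. Astrocyte markers were lower in the same 2 libraries, at 442 and 428 CPM against 641 to 669 CPM in the other 4, as were endothelial and mural markers, at 82.4 and 65.8 CPM against 107 to 170 CPM, and fibroblast and mesenchymal markers, at 47.5 and 49.0 CPM against 88.2 to 99.2 CPM. Microglia and macrophage markers went the other way and were highest in these 2 libraries, at 14.97 and 13.16 CPM against 8.62 to 12.3 CPM. This list was scarce, since 7 of its 10 markers were under 1 CPM in every library. The part of these lists in the members' levels was not tested. In batch 2 the median deviation was 0.42 in control replicate 3, with 32 of 43 genes above their batch mean, and between -0.13 and -0.03 in the other 5 libraries.

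**Figure D4:**
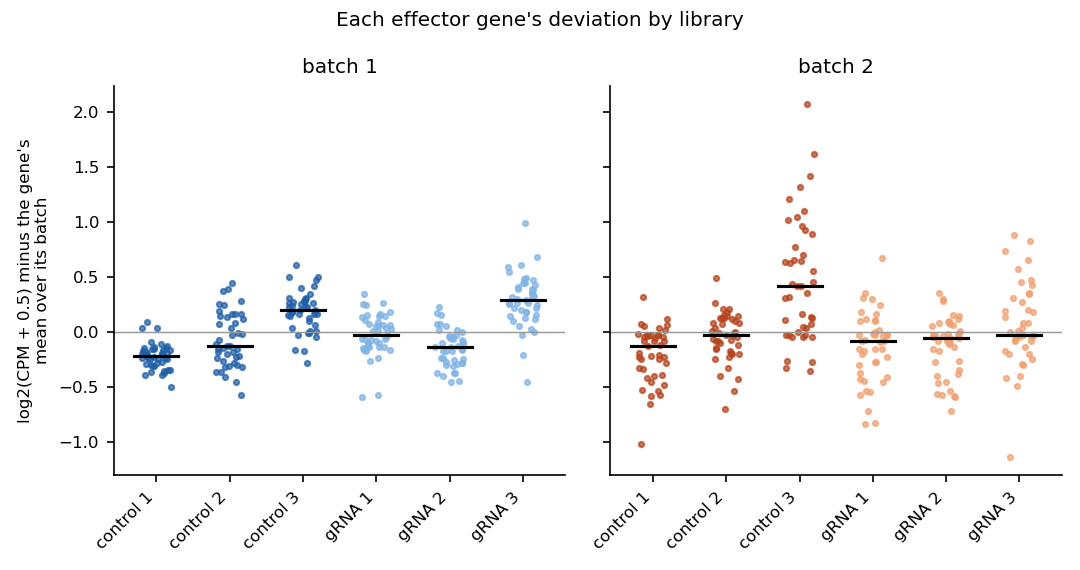
Deviation of each of the 43 effector genes from its mean over the 6 libraries of its batch, on a log2(CPM + 0.5) scale, by library. Points are genes and black bars medians; replicates 3 of both groups lie high in batch 1 (medians 0.20 and 0.29), and control replicate 3 lies high in batch 2 (0.42).

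The gRNA and control libraries were compared over both batches with batch as a term, and no effector gene passed the test. With edgeR's quasi-likelihood test 0 of 40 tested members and 0% of 18279 genes had an adjusted p under 0.05, and DESeq2 and limma-voom called 0 as well. At an unadjusted p under 0.05 there were 0 members and 243 genes. The members' median log2 difference, gRNA minus control, was -0.05 (-0.01 over all genes), with 16 members above 0 and 24 below, and it turned to 0.05 without control replicate 3 of batch 2, to 0.03 without the batch term and to 0.003 in limma-voom. The 95% interval excluded a 2-fold difference for 35 of 40 members (87.5%), beside 87.3% of all genes.

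The 4 members with the smallest p over both batches were Nmi, Herc6, Ifit2 and Trim30a. Their log2 differences were 0.26 ± 0.14 (SE), 0.24 ± 0.14, 0.20 ± 0.13 and 0.31 ± 0.23, each with an edgeR adjusted p of 0.9998, and Nmi had the smallest unadjusted p, 0.0796 in edgeR. None is distinguished from 0 at this spread.

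Each batch alone gave the same absence of calls. In batch 1, 0 of 40 members and 0% of 16988 genes passed (147 genes at an unadjusted p under 0.05, none of them a member; DESeq2 called 0). The members' median was 0.04 with 28 above 0 and 12 below, and it turned to -0.08 without gRNA replicate 3 and to -0.05 without control replicate 1. The interval excluded a 2-fold difference for 38 of 40 members (95%), beside 82.3% of genes. For 0 of 40 members the 3 gRNA and 3 control libraries did not overlap, beside 5.03% of genes.

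In batch 2, 23 members passed the filter, 0 of them were called, and 0% of 15647 genes were (116 genes at an unadjusted p under 0.05; DESeq2 called 0). The median was -0.26 with 6 above 0 and 17 below, and it was -0.01 with 12 above and 12 below without control replicate 3. Gbp2, with a log2 difference of -1.47 ± 0.75 (SE, edgeR adjusted p = 0.998), and Parp14, with -1.19 ± 0.60 (SE, edgeR adjusted p = 0.998), had large differences that came with 15.3 and 9.25 CPM in that control library. The interval excluded a 2-fold difference for 13 of 23 members (56.5%), beside 78.5% of genes, so for the other 10 a 2-fold change of the remaining level was not excluded.

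The 3 gRNA and 3 control libraries of batch 2 did not overlap for 3 of 23 members, Nmi, Cmpk2 and Trim21, beside 5.18% of genes. Nmi did not pass the test and stood at higher values with gRNA, with 10.4 to 11.4 CPM against 7.07 to 8.08 CPM, a log2 difference of 0.55 ± 0.17 (SE) with an unadjusted p of 0.0147 and an adjusted p of 0.998 in edgeR. Its difference in batch 1 was 0.003 ± 0.18 (SE), where the groups overlapped. Cmpk2 stood lower, at 7.83, 7.34 and 7.83 CPM with gRNA and 8.56, 9.996 and 8.23 CPM in the control, by -0.22 ± 0.18 (SE, edgeR adjusted p = 0.998). Trim21 was at 6.21, 5.88 and 5.29 CPM with gRNA and at 6.54, 6.73 and 8.01 CPM in the control.

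The difference of the gRNA effect between the batches was tested as an interaction, and 0 of 40 members and 0% of 18279 genes passed (236 genes and 5 members at an unadjusted p under 0.05; DESeq2 called 0). These 5 were Xaf1, Ddx60, Mx2, Nmi and Oas1a. Without control replicate 3 of batch 2 there were 1 member and 219 genes at that limit in edgeR. All batch 2 counts of Oas1a came from that library. Xaf1 had the smallest p, 0.00398 unadjusted with an adjusted p of 0.9999 in edgeR, and a difference of -2.26 ± 0.65 (SE) that rests on 23 counts in batch 2. The members' median difference was -0.41, with 9 above 0 and 31 below, and it was -0.04 with 20 above and 22 below without control replicate 3 of batch 2. The interval excluded a 2-fold difference for only 10 of 40 members (25%), beside 56.2% of genes. In batch 2 alone 23 members passed the filter, and the others entered this test through their batch 1 level. For most members a 2-fold difference of the effect was therefore not excluded. When no filter on low counts was used, edgeR called 42 genes, among them Gbp2 and Parp14.

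**Figure D5:**
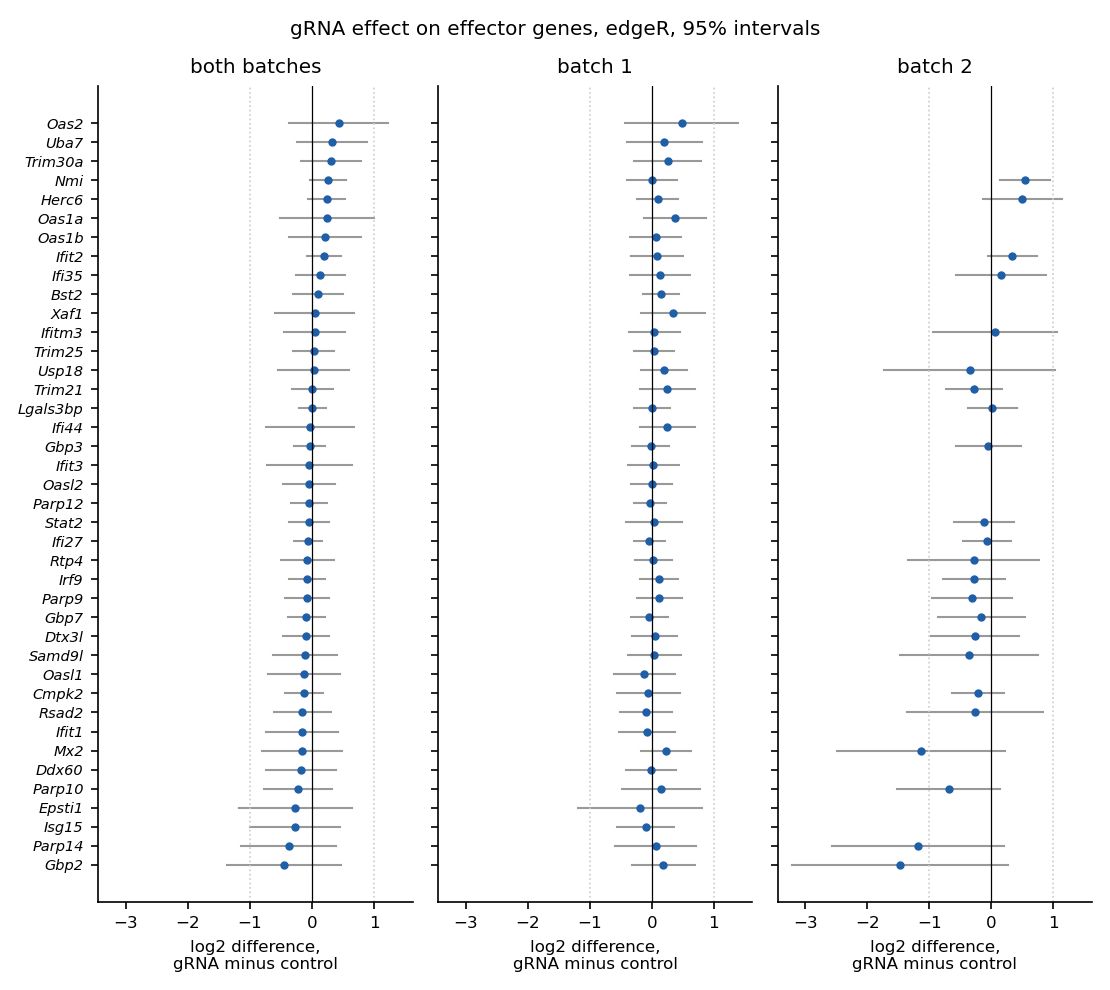
Log2 difference of gRNA minus control for the 40 tested effector genes over both batches, in batch 1 and in batch 2 (23 genes). The 95% intervals were computed from edgeR's F statistic, and dotted lines mark a 2-fold difference. The points lie around 0, most intervals include 0, and the intervals of batch 2 are wider, with Gbp2 and Parp14 at the low end.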

How the data were processed

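The total RNA libraries of mouse neural stem cells number 12, 3 gRNA and 3 control in each of 2 labelled batches. RNeasy columns and a stranded total RNA kit that removes ribosomal RNA were used, per the labels' protocols. The submitters' processing notes name Trimmomatic, STAR, SAMtools and HTSeq on GRCm39, while versions, the gene annotation and whether HTSeq used strand were not given in the sources used here, so reads of overlapping genes cannot be told apart. The deposited values are raw counts per Ensembl gene, and the authors did not normalize them. The HTSeq summary lines were left out, and symbols were found for 51880 of 57132 identifiers (90.8%).

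Genes were kept by filterByExpr (minimum count 10 in libraries grouped by batch and treatment), scaled by TMM and tested with edgeR 4.0.16 in R 4.3.3 with the quasi-likelihood test, adjusted by Benjamini-Hochberg over all genes at 0.05. The test itself returns no standard error. The SE given here is the absolute log2 difference over the square root of the F statistic. The 95% intervals of log2 differences multiply it by a quantile of the t distribution. DESeq2 1.42.0 and limma 3.58.1 were alternatives, and the scripts were tested on simulated data. Levels are CPM, not scaled by gene length, and their order over genes was used only to choose which members to describe. Counting intervals are exact, at 95%, cover counting error only and treat reads as independent molecules. Promoter windows and gene order are from RefSeq, build GRCm38.p6, and a gene with several windows counted as holding a motif if any did. Figures used Python 3.11.15 with matplotlib 3.10.9.

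The members, roles and lists were chosen with earlier results of these data known. Values per library are given for Stat2 and Irf9, the 8 members with the most CPM in batch 1, the 6 with the highest and the 6 with the lowest residual among those with a mean of at least 10 counts in batch 1, those just above and below 10%, and the 4 with the smallest p for gRNA; others are named by role. Footprints on the members were not analysed here, because no table at hand pairs the transcripts with genes and the library names inside the P-site table match no sample label. A result on 1 gene outside the members is not reported here.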

Additional observations from a re-analysis of the deposited data

How the results depend on the processing

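Without a filter on low counts edgeR called 1 gene for gRNA over both batches (Fosb), 1 in batch 1 (Gm9843) and 42 for the difference between batches, 2 of them members, Gbp2 and Parp14, in place of 0 each; other alternatives called 0. With control libraries only, 6730 genes differed between batches in place of 11282. The median deviation of the members in gRNA replicate 3 of batch 2 was 0.0016 over the 21 members with at least 10 counts in every library of the batch, in place of -0.0275. Leaving out 1 library at a time, the median residual lay between 2.38% and 3.01%, the summed level between 7.78% and 8.53% of batch 1, and the number of members under 10% was 29 or 30. Residuals of 14 members moved by more than 1.5-fold: 9 without control replicate 3 of batch 2, and Trim25, Parp12, Epsti1, Sp100 and Sp110, each with 1 or 2 counts there, without the library that held a count. Causes were not tested beyond the counts named. Scaling by total counts or RLE gave median residuals of 2.95% and 2.83%. No paired analysis was possible because the RNA-seq labels carry no replicate numbers (those used here follow accession order), and the numbered footprint libraries were not analysed here; the planned comparison of footprints was not run. Depth limits the residual of Oas3, Sp100, Sp110 and Epsti1 and most changes of members under 1 CPM in batch 2.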
